A study of Mus musculus with 2 samples.

Results

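The miR-181 family of the mouse is encoded by 6 hairpin genes, Mir181a-1, Mir181a-2, Mir181b-1, Mir181b-2, Mir181c and Mir181d, chosen by GENCODE symbol from the 2202 microRNA genes counted. Small RNA was sequenced from hippocampal tissue (a hippocampal layer, by its label) of 5xFAD/CAST males, adults aged 8 to 10 months, in 2 libraries. 5xFAD mice carry transgenes under the neuronal Thy1 promoter and are a model of amyloid deposition, and CAST is a wild-derived strain. The libraries form 1 group and are named here by their label numbers, replicate 2 and replicate 1. Each has its own tissue record but both cite 1 donor record, so whether they came from separate animals is not settled and their spread may be technical. Both libraries carry the same strain label and no control was analysed here, so nothing below is an effect of the transgenes, strain or age.

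A microRNA is cut from a hairpin as a short duplex of a 5p arm and a 3p arm, and the arm loaded into Argonaute pairs with target messenger RNAs mainly through its seed, bases 2 to 8. miR-181a is best known for tuning T cell receptor sensitivity in developing lymphocytes. In rodent brain, miR-181 microRNAs are found in neurons and astrocytes, where miR-181a has been tied to the AMPA receptor subunit GluA2 in hippocampal neurons and to the chaperone GRP78 in ischemia, and miR-181 to inflammatory signalling in astrocytes.

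The sequences come first, because they decide which reads can be told apart. The 5p arms of the family are given below from RefSeq (build GRCm38.p6, entries found for all 6 genes), 5′ to 3′, with the seed in capitals.
mmu-miR-181a-5p: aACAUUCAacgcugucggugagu
mmu-miR-181b-5p: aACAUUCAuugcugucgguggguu
mmu-miR-181c-5p: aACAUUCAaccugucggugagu
mmu-miR-181d-5p: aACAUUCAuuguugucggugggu
All 4 sequences carry the seed ACAUUCA, and no other of the 1679 mature names in the RefSeq table does. Counted from 1 at the 5′ end, miR-181d-5p differs from miR-181b-5p by C12U and by its shorter 3′ end. miR-181c-5p is 1 edit away from miR-181a-5p, a missing base after 10 identical leading bases. miR-181a-5p and miR-181b-5p differ by A9U, C10U and A21G and in length.

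The 3p arms are shown in the same way, because they distinguish gene copies that the 5p arms do not.
mmu-miR-181a-1-3p: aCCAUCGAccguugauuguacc
mmu-miR-181a-2-3p: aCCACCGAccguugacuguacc
mmu-miR-181b-1-3p: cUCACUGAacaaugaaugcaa
mmu-miR-181b-2-3p: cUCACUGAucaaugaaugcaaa
mmu-miR-181c-3p: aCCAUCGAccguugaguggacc
mmu-miR-181d-3p: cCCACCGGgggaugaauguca
These arms carry 4 seeds. The seed CCAUCGA is shared by the Mir181a-1 and Mir181c arms, which differ by U16G and U19G, and UCACUGA by the arms of both miR-181b genes, which differ by A9U and in length. The Mir181a-2 arm differs from that of Mir181a-1 by U5C and U16C, the first of them inside the seed.

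The family's genes lie as 3 tandem pairs (mm10, GENCODE M21). Mir181a-1 (ENSMUSG00000065565.1; chromosome 1, 137966455 to 137966541, plus strand) and Mir181b-1 (ENSMUSG00000065458.1; 137966639 to 137966718) are 97 bases apart in an intron of the noncoding gene Gm4258. An exon of the long noncoding RNA A430106G13Rik holds all 80 bases of Mir181b-1 and 11 of the 87 bases of Mir181a-1, and an intron of the long noncoding RNA gene Gm26936 lies on the opposite strand. Mir181a-2 (ENSMUSG00000065423.1; chromosome 2, 38852735 to 38852810, plus strand) and Mir181b-2 (ENSMUSG00000065578.1; 38853830 to 38853918) are 1019 bases apart, opposite an intron of Nr6a1, an orphan nuclear receptor gene. Mir181b-2 also lies opposite an exon of Gm44144. Mir181c (ENSMUSG00000065483.2; chromosome 8, 84178873 to 84178961, minus strand) and Mir181d (ENSMUSG00000076338.1; 84178716 to 84178787) are 85 bases apart in an intron of Nanos3, a germ cell RNA-binding protein gene, on its strand. No other microRNA gene lies within 10000 bases of any pair, and no read was counted on the opposite strand of a member in either library.

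The chromosome 8 pair is single-copy, and the other 4 genes are not. No stretch of 20 bases of the Mir181c or Mir181d hairpin occurs in another microRNA gene. The miR-181a hairpins have 28 bases in common and the miR-181b hairpins 26, and both stretches hold the whole 5p arm. The windows below begin at the 5p arm and run 8 bases past it, with capitals where the copies of a gene differ.
Mir181a-1, chr1:137966468-137966498, plus strand: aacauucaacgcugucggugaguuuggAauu
Mir181a-2, chr2:38852741-38852771, plus strand: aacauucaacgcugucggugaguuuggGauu
Mir181b-1, chr1:137966650-137966681, plus strand: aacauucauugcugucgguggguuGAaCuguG
Mir181b-2, chr2:38853845-38853876, plus strand: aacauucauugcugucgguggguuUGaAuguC
A read that starts at the 5p arm must be at least 28 bases long to match only 1 miR-181a gene, and at least 25 bases to match only 1 miR-181b gene, against mature lengths of 23 and 24 bases. From the start of the 3p arm, 16 bases are enough for Mir181a-1, 9 for Mir181a-2 and 10 for each miR-181b gene. Reads that fit several places were 38.2% of all reads in replicate 2 and 41.6% in replicate 1. Such reads are counted in a row without a gene. A 5p read of mature length fits both miR-181a genes or both miR-181b genes, so it would fall in that row. The sources used here do not give the rule for that row. The counts of the miR-181a and miR-181b genes are therefore uncertain as measures of these microRNAs, and may not compare with those of Mir181c and Mir181d. The hairpins are those of the reference strain, and CAST differences within them were not analysed here.

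**Figure D1:**
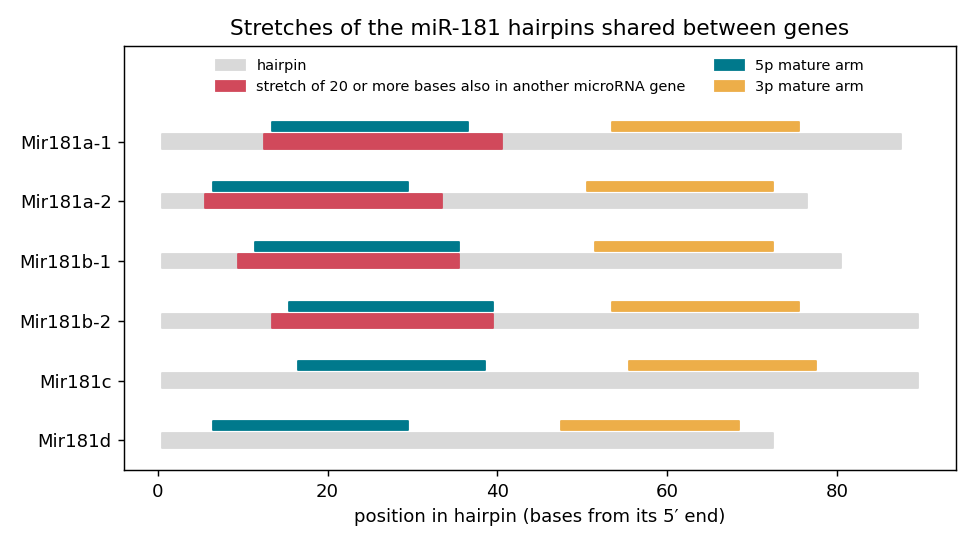
Map of the 6 miR-181 hairpins, with the position in bases from the 5′ end of each hairpin on the horizontal axis, the 5p and 3p mature arms above each hairpin and, in red, bases in windows of 20 that also occur in another microRNA gene. The shared stretch is 28 bases in the miR-181a genes and 26 in the miR-181b genes, covers the 5p arm and leaves the 3p arm out, and Mir181c and Mir181d have none.

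Depth allowed all 6 genes to be measured. Reads assigned to microRNA genes numbered 2820468 in replicate 2 and 3421977 in replicate 1, so that a count of 0 would allow up to 1.06 and 0.877 CPM (reads of a gene per 1000000 assigned reads; the limit is 3 reads). All 6 members passed the minimum of 10 reads in both libraries, as did 389 of the 2202 genes. The hippocampal label was set against marker lists. Neuron-enriched microRNAs took 3.55% of assigned reads in replicate 2 and 3.39% in replicate 1, with 11 of 14 genes detected and Mir124a-2 and Mir124a-3 at 0, and oligodendrocyte microRNAs took 0.667% and 0.503%. The lymphocyte and leukocyte list took 0.449% and 0.521%, with all 7 genes found in the tables detected, the endothelial and mural list 1.32% and 2.17%, and the choroid plexus list 0.161% and 0.338%. The erythroid list took 0.00599% and 0.00476%, and the striated muscle and liver list 0.00503% and 0.00514%, with Mir1a-1, Mir133a-2 and Mir133b at 0. Of the genes listed, 11 of 14 neuron-enriched and 5 of 7 striated muscle and liver genes share a stretch with another microRNA gene. Reads that fit several places are counted without a gene, so a count of 0 at such a gene does not show absence.

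The 6 miR-181 genes together took 0.492% of assigned reads in replicate 2 (exact Clopper-Pearson 95% interval 0.4838 to 0.5001) and 0.417% in replicate 1 (0.410 to 0.424). The intervals, here and below, cover counting error only, and these do not overlap. The mean was 0.454% ± 0.053 (SD, n = 2 libraries), or 4543 ± 531 CPM. In bulk tissue, fewer cells of a type and less RNA per cell cannot be told apart, so a level is not assigned to neurons, glia or lymphocytes.

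Mir181b-2 had the highest mean level, with 5003 reads (1774 CPM, 95% interval 1725 to 1824) in replicate 2 and 4923 reads (1439 CPM, 1399 to 1479) in replicate 1. Mir181d, encoding the microRNA closest in 5p sequence to miR-181b, had 3784 reads (1342 CPM, 1299 to 1385) in replicate 2 and 4982 reads (1456 CPM, 1416 to 1497) in replicate 1. Mir181c, the neighbour of Mir181d, had 3765 reads (1335 CPM, 1293 to 1378) in replicate 2 and 2682 reads (784 CPM, 754 to 814) in replicate 1. These 3 genes ranked between 67 and 78 of the 389 detected genes in replicate 2 and between 73 and 101 in replicate 1.

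Mir181a-1 followed, with 1214 reads (430 CPM, 407 to 455) in replicate 2 and 1572 reads (459 CPM, 437 to 483) in replicate 1, at rank 134 and 122. The other copies were lower, at ranks 280 to 316 of 389. Mir181b-1 had 57 reads (20.2 CPM, 15.3 to 26.2) in replicate 2 and 65 reads (19.0 CPM, 14.7 to 24.2) in replicate 1. Mir181a-2 had 51 reads (18.1 CPM, 13.5 to 23.8) in replicate 2 and 37 reads (10.8 CPM, 7.61 to 14.9) in replicate 1.

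By mean CPM with SD over 2 libraries, the order was Mir181b-2 (1606 ± 237), Mir181d (1399 ± 80.8), Mir181c (1059 ± 390), Mir181a-1 (445 ± 20.5), Mir181b-1 (19.6 ± 0.86) and Mir181a-2 (14.4 ± 5.14). Mir181b-2 and Mir181d changed places between the libraries, and the gaps from Mir181b-2 to Mir181d, from Mir181d to Mir181c and from Mir181b-1 to Mir181a-2 were smaller than the summed SDs of the neighbours. The gaps from Mir181c to Mir181a-1 and from Mir181a-1 to Mir181b-1 were larger. The former sets a single-copy gene beside a gene that shares its 5p arm with a copy, so it does not order the microRNAs by level. Mir181a-1 had 21.3 times the reads of Mir181b-1 in replicate 2 and 24.2 times in replicate 1. A small RNA read stands for 1 cut fragment, so levels are not divided by gene length. Per hairpin base, Mir181d stood above Mir181b-2 and the other 4 kept their order.

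**Figure D2:**
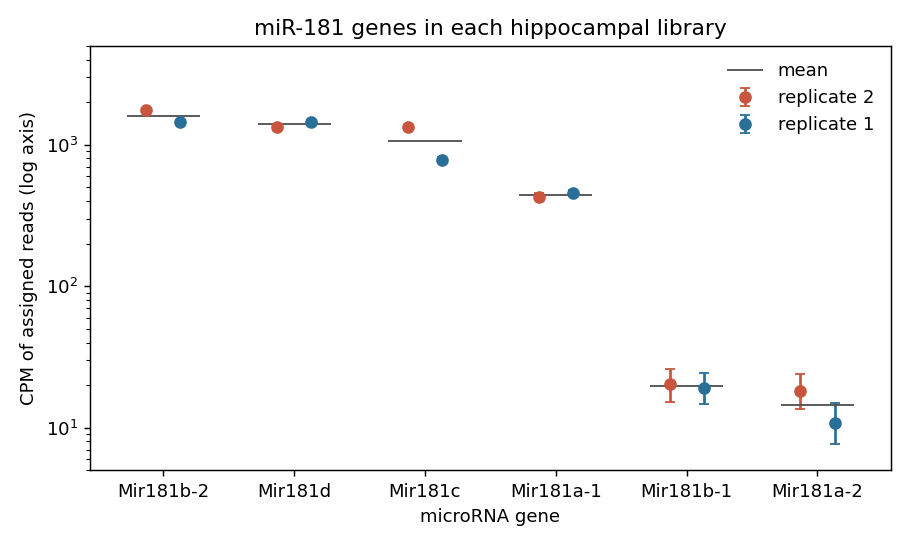
CPM of each miR-181 gene on a log axis, with a point per library (replicate 2 left of replicate 1), exact 95% counting intervals as bars and the mean of the libraries as a line. Mir181b-2, Mir181d and Mir181c lie between 784 and 1774 CPM, Mir181a-1 at 430 and 459 CPM, and Mir181b-1 and Mir181a-2 between 10.8 and 20.2 CPM.

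The copies that encode the same 5p microRNA were counted very unequally. Mir181b-2 had 87.8 times the reads of Mir181b-1 in replicate 2 (95% interval 67.6 to 116) and 75.7 times in replicate 1 (59.3 to 98.3). Mir181a-1 had 23.8 times the reads of Mir181a-2 in replicate 2 (17.99 to 32.15) and 42.5 times in replicate 1 (30.7 to 60.6). In each case the intervals of the libraries overlapped. The copy with more reads lies on chromosome 2 for miR-181b and on chromosome 1 for miR-181a, so neither locus had the higher copy of both microRNAs. A read within the shared stretch fits both copies, so these ratios describe the reads assigned to each gene and not the output of the loci.

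Unequal copies were common among duplicated microRNA genes, a comparison added after the values were seen. Of 16 pairs of genes that RefSeq lists with 1 mature name, and that had at least 100 summed reads in each library, 15 had the same copy ahead in both libraries. The ratio of summed reads had a median of 3.91 and ran from 1.04 to 632, and 6 pairs reached 10. The ratio was 81.4 for the miR-181b copies and 31.7 for the miR-181a copies. They ranked 2 and 3 of the 16 pairs, below Mir219a-2 and Mir219a-1, the genes of an oligodendrocyte microRNA.

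**Figure D3:**
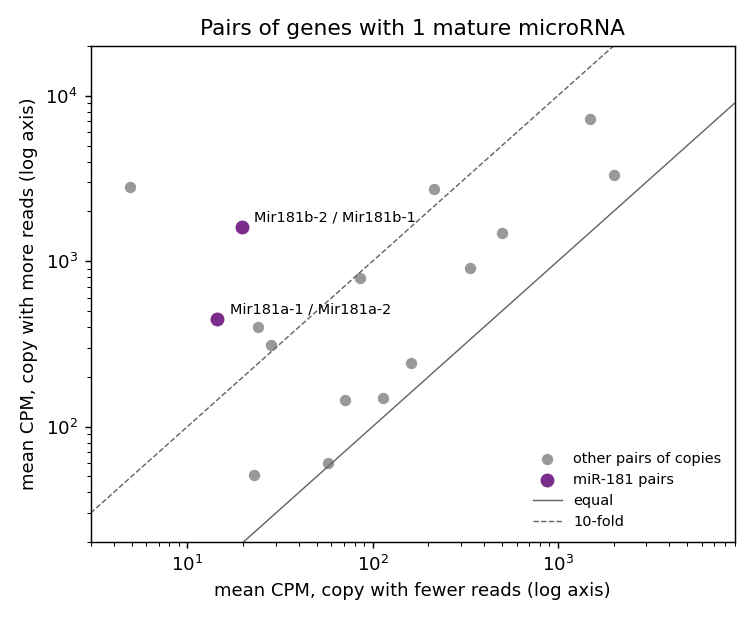
Mean CPM of the copy with more reads against that of the copy with fewer reads, both on log axes, for 16 pairs of genes with 1 mature microRNA; lines mark equal levels and a 10-fold difference. The miR-181b and miR-181a pairs, at 81.4-fold and 31.7-fold by summed reads, lie above the 10-fold line.

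Within the tandem pairs, 1 gene took nearly all assigned reads on chromosomes 1 and 2 but not on chromosome 8. Mir181a-1 took 95.5% of its pair's reads in replicate 2 (95% interval 94.2 to 96.6) and 96.0% in replicate 1 (94.97 to 96.92). Mir181a-2 took 1.01% of its pair's reads in replicate 2 (0.752 to 1.32) and 0.746% in replicate 1 (0.526 to 1.03), the rest being Mir181b-2. Both splits overlapped between the libraries within counting error. The genes of these pairs share their 5p arms with copies elsewhere, whereas Mir181c and Mir181d do not. Their 5p reads of mature length may thus be missing. These splits describe assigned reads and not the output of the loci, and may not compare with that on chromosome 8.

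Mir181c took 49.9% of the reads of the chromosome 8 pair in replicate 2 (48.7 to 51.0) and 35.0% in replicate 1 (33.9 to 36.1). The ratio of Mir181c to Mir181d was 0.995 in replicate 2 (0.951 to 1.04) and 0.538 in replicate 1 (0.513 to 0.564), a 1.85-fold change in the ratio that no scaling of the libraries can move. These hairpins share no stretch of 20 bases with any other microRNA gene. Among all 106 neighbouring pairs of detected genes within 10 kb on 1 strand, the intervals of the libraries were apart in 69 (65.1%), the median fold between ratios was 1.63, and 44 pairs (41.5%) had a fold at least as large as Mir181c and Mir181d. A shift of this size was common among these pairs. They are not independent, since a gene can stand in more than 1 pair and the run of genes from Mir379 to Mir3072 supplies many of them.

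**Figure D4:**
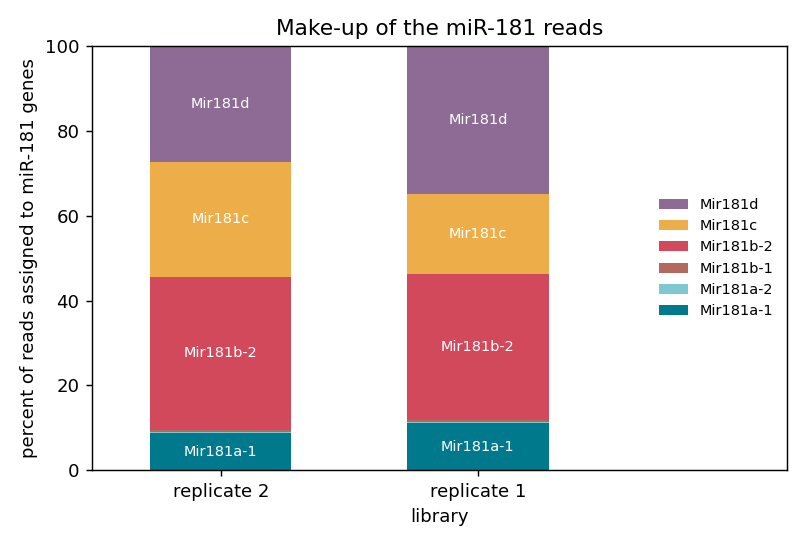
Percent of the reads assigned to the 6 miR-181 genes that each gene took, as stacked bars for replicate 2 and replicate 1. Mir181c took 27.1% in replicate 2 and 18.8% in replicate 1, Mir181d took 27.3% and 34.9%, Mir181b-2 took 36.1% and 34.5%, and Mir181b-1 and Mir181a-2 each took under 1%.

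By locus, the chromosome 8 pair held 54.4% of the family's assigned reads in replicate 2 and 53.7% in replicate 1. The chromosome 2 pair held 36.4% and 34.8%, and the chromosome 1 pair 9.16% and 11.5%. The share of the chromosome 8 pair was thus close in both libraries although its 2 genes differed in opposite directions.

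The libraries were then compared gene by gene, with an exact two-sided binomial test of the 2 counts against TMM-scaled library sizes (TMM is edgeR's scaling for library composition) and Benjamini-Hochberg adjustment over the 389 detected genes. The test asks whether 1 library differs from the other by more than counting error. It makes no allowance for spread between replicates and compares no conditions. It called 4 of the 6 members (66.7%), against 67.6% of all detected genes, so the members' count is at the background. With at least 100 reads in both libraries, it called all 4 members tested, against 209 of 241 genes, so the share called depends on read depth. Log2 ratios are replicate 2 over replicate 1.

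Mir181c was higher in replicate 2, with a log2 ratio of 0.67 (95% counting interval 0.60 to 0.74; adjusted p = 4.14e-76, exact binomial test). Mir181b-2 was also higher, by 0.20 (0.15 to 0.26; adjusted p = 4.31e-12, exact binomial test). Mir181d was lower in replicate 2, at -0.22 (-0.28 to -0.15; adjusted p = 1.03e-11, exact binomial test), and so was Mir181a-1, at -0.19 (-0.30 to -0.082; adjusted p = 0.000921, exact binomial test). The call on Mir181a-1 was lost with library totals in place of TMM, where its log2 ratio was -0.094 (adjusted p = 0.12).

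Mir181a-2 had a log2 ratio of 0.64 (0.0055 to 1.30; adjusted p = 0.061, exact binomial test) and passed with library totals (0.74, adjusted p = 0.028). Mir181b-1 had a log2 ratio of -0.0080 (-0.55 to 0.53; adjusted p = 1, exact binomial test), which at 57 and 65 reads leaves differences of up to that interval undetectable. Its sign changed with library totals, to 0.089.

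Mir181c and Mir181a-2 differed by more than the median detected gene and the other 4 members by less, with no test of the members against other genes. The median absolute log2 ratio was 0.21 over the 6 members and 0.52 over all detected genes, and 0.42 over the 130 genes with a mean CPM of at least that of Mir181a-1, a comparison added after the values were seen. The median log2 ratio was 0.098 over the members and 0.055 over all detected genes. In edgeR's exact test, whose error is the spread between the libraries (common biological coefficient of variation 0.41), 0 members passed and 0 had an unadjusted p under 0.05. It called 2 of 389 genes (0.514%), and 23 had an unadjusted p under 0.05. That error comes from the same 2 libraries, so it does not show that the members agreed between them.

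**Figure D5:**
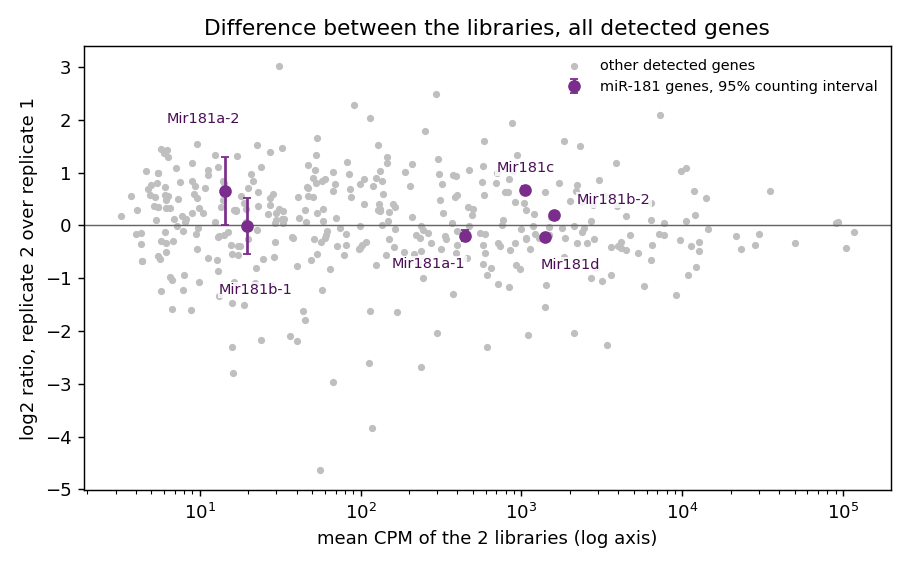
Log2 ratio of replicate 2 over replicate 1 on TMM-scaled counts against mean CPM (log axis) for the 389 detected genes, with the 6 miR-181 genes in purple and their 95% counting intervals as bars. The members lie between -0.22 and 0.67, within the spread of the grey points, with the widest intervals at Mir181a-2 and Mir181b-1.

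Hairpin GC content did not order the members by their log2 ratio. It was 58.4% for Mir181c and 51.4% for Mir181d, against 46.1% for Mir181a-2, 45% for Mir181b-1, 44.9% for Mir181b-2 and 42.5% for Mir181a-1, with a median of 52.1% over detected hairpins. The gene of highest GC content, Mir181c, had the highest log2 ratio and that of lowest GC content, Mir181a-1, was lower in replicate 2, but Mir181d, second by GC content, had the lowest log2 ratio. The part of GC content in these differences was not tested. Unmapped reads also differed, at 22.6% of all reads in replicate 2 and 16.6% in replicate 1, and their part was not tested either.

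The lymphocyte and leukocyte list is of interest here because miR-181 genes are known from lymphocytes. Of its 7 detected genes, the binomial test called 0 higher and 5 lower in replicate 2 (median log2 ratio -0.25). Mir342 had the most reads of the list, at 2354 CPM in replicate 2 and 2385 CPM in replicate 1. Of the 11 detected neuron-enriched genes 8 were called higher and 3 lower (median 0.49). They were led by Mir132, an activity-regulated microRNA, at 11795 and 13708 CPM, and 11 of the 14 genes listed share a stretch of 20 bases with another microRNA gene. Over all detected genes, 33.9% were called higher and 33.7% lower. Of the 3 detected endothelial and mural genes 0 were called higher and 3 lower (median -1.32). They were led by Mir143 at 5473 CPM in replicate 2 and 12791 CPM in replicate 1. Of the 4 choroid plexus genes 1 was called higher and 2 lower (median -0.44). Of the 2 detected oligodendrocyte genes 1 was called higher and 1 lower, and of the 3 erythroid genes 1 was called higher and 0 lower. The part of cell make-up in the members' differences was not tested.

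Set beside other duplicated families, miR-181 took fewer assigned reads and a smaller part of them in single-copy genes. The miR-29 family, which includes microRNAs that target Bace1, took 14509 CPM in replicate 2 and 11892 CPM in replicate 1, and miR-30 took 11797 and 12228 CPM, against 4919 and 4167 CPM for miR-181. Genes with no shared stretch of 20 bases held 92.0% and 91.0% of the miR-29 reads, 96.7% and 96.6% of the miR-30 reads and 98.3% and 98.6% of the let-7 reads. In the miR-181 family they held 54.4% and 53.7%. By mean CPM the most abundant genes of those families were Mir29a, Mir30d and Mirlet7b, although Mir30e led miR-30 in replicate 2, with 4525 CPM against 3568 CPM for Mir30d. None of these 4 genes has a shared stretch, whereas Mir181b-2 has. These are descriptions of 2 libraries, and the differences between families were not tested. The sums hold assigned reads only, and reads that fit several genes may be missing from them. Whether the microRNAs of the miR-181 family were also lower in level than those of the other families was not tested.

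By Euclidean distance of log2(CPM + 1) over 2 libraries, the detected genes nearest in level to each member came from unrelated families. They were Mir369 and Mir27b for Mir181b-2, Mir128-2 and Mir370 for Mir181d, and Mir409 and Gm23450 for Mir181c. Mir181a-1 lay nearest to Mir467d and Mir1843a, Mir181b-1 to Mir135b and Mir677, and Mir181a-2 to Mir7066 and Mir582. The distances ran from 0.032 to 0.28 log2 units, and with 2 libraries they describe similar levels and no shared pattern.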

How the data were processed

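Each file deposited by the authors holds raw counts of reads by microRNA gene, in 3 columns (either strand, the gene's strand, the other strand), on mm10 with GENCODE M21 per the text notes deposited with the files. Aligner, counter and trimming settings were not given in the sources used here. The 4 leading rows that name no gene held 67.0% of reads in replicate 2 and 64.8% in replicate 1 and did not enter library sizes. Reads on the gene's strand were used. CPM, exact Clopper-Pearson 95% intervals, which cover counting error only, and exact binomial tests were computed with scipy 1.17.1. TMM factors and the edgeR exact test used edgeR 4.0.16 (R 4.3.3), and DESeq2 1.42.0 gave alternative size factors. A quasi-likelihood test needs a contrast between groups and was not run. The binomial p-values set the difference between these libraries against counting error alone, with no term for spread between replicates. That difference may be technical. Detected means at least 10 reads in both libraries, and the threshold was an adjusted p of 0.05. The binomial test was tested on simulated counts with counting error only, which cannot show how it behaves with spread between libraries. A hairpin was called shared if 20 of its bases occur, on either strand, in a microRNA gene elsewhere (1087 of 2202 genes); copies outside microRNA genes were not searched. All members were named, with the 2 nearest genes to each and the leading gene of each list. Members and lists were chosen with earlier results of these data known. Alternatives varied the scaling, strand column, minimum count, test, shared length and pseudocount.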

Additional observations from a re-analysis of the deposited data

How the results depend on the processing

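The family's mean share of 0.454% was 0.155% with all reads of the file as the denominator and 0.246% with only Mir181c and Mir181d counted, the cause being the larger denominator and the fewer genes by construction. It was between 0.417% and 0.492% with 1 library left out, a value with no error. The number of genes that differ between the libraries (263 of 389 tested) was 261 of 389 with library totals and 269 of 389 with DESeq2 size factors. It was 241 of 364 without regard to strand, 282 of 756 with no minimum count and 209 of 241 with at least 100 reads. The share called thus depended on the minimum count. Under the edgeR exact test 2 of 389 genes were called. The number of members called was 4 in each of the other settings and 0 under the edgeR exact test. The log2 ratio of Mir181b-1 reversed to 0.089 with library totals and to 0.0032 without regard to strand, and was not called under any of the alternatives run. The 3 pair ratios were the same without regard to strand, which was fixed in advance because no opposite-strand read was counted at a member. All 12 pairs of a member and a nearest gene remained with a pseudocount of 10 CPM. With library totals 4 members were still called, but Mir181a-2 in place of Mir181a-1. Leaving out a library gives no ratio between libraries. With at least 100 reads in both libraries, Mir181a-2 and Mir181b-1 were not tested. No paired analysis was possible because there is 1 group. Depth limits Mir181a-2 and Mir181b-1, whose counts of 37 to 65 reads leave wide intervals.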
